A study of Mus musculus with 8 samples.

Results

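Arhgap6 was followed as 1 gene of 19787 across the neurons and other cells of the low thoracic mouse spinal cord. It was chosen because its level differed between traced and untraced neurons, so that contrast, and its levels across the subtypes defined on the same nuclei, are given here as a description with no test. The data are single-nucleus RNA sequencing counts from wild type C57BL/6 mice, in 8 libraries prepared with 10x v3 chemistry. Experiment 1 gave 2 libraries of traced neurons of uninjured mice, marked by GFP because they project to the lumbar cord, and 2 libraries of untraced, GFP-negative nuclei of the same mice. Experiment 2 gave 2 libraries after a hemisection followed by natural repair and 1 library from an uninjured control. Experiment 3 gave 1 library of regenerating traced neurons. All groups share strain, genotype and region, while the sources used here do not give age, sex, the tracer or the time after injury.

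Small GTPases are molecular switches, and GTPase-activating proteins turn them off. ARHGAP6 is such a protein. In human cells it acts on RhoA, a GTPase that sets the assembly of actin filaments, and its overexpression takes apart actin stress fibres. In neurons RhoA and its kinase ROCK are known for restraining the growth cone. In the spinal cord, excitatory interneurons of the dorsal horn receive and relay input from the skin, muscles and viscera, and ventral interneurons and motor neurons take part in movement.

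In the GENCODE M21 annotation of GRCm38, Arhgap6 (ENSMUSG00000031355.16) is protein-coding and lies on the plus strand of chromosome X, from 168795099 to 169304435. The locus of 509337 bases has 7 annotated transcripts, 5 of them protein-coding, with up to 15 exons. Hccs, which encodes holocytochrome c synthase, lies on the minus strand, and 13 distinct Arhgap6 exons fall inside it. Amelx, the gene of the enamel protein amelogenin, lies on the minus strand inside an Arhgap6 intron. The matrix holds 27766 UMIs of Arhgap6 over all nuclei, 1231 of Hccs and 233 of Amelx. A UMI is a tag that marks a single captured transcript molecule. The sources used here do not say whether counting used strand, so reads from overlapping exons cannot be assigned with certainty.

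Nuclei numbered 12447, of which the deposited annotation calls 4076 neurons of 28 subtypes. The neurons summed to between 135012 UMIs in the regenerating library and 20739862 UMIs in the uninjured control. Regenerating nuclei were shallow, with a median of 488 UMIs, against medians between 5767 and 16489.5 UMIs in the neurons of the other libraries. The 3 measured neuronal markers of 4 (Rbfox3, Snap25 and Syt1) summed to 3190 CPM (counts per 1000000 UMIs) in the nuclei called neurons and to between 305 and 532 CPM in the other classes. Of 28 pairs of libraries, 3 shared barcodes, 4 in all, and 4727 nuclei carried no barcode sequence to compare. These were all 238 regenerating neurons and every non-neuronal nucleus of the uninjured control, but none of the control's 2148 neurons. The labels do not say whether the control's neurons and its other nuclei come from the same preparation.

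Most Arhgap6 UMIs, 26177 (94.3%), lay in neurons, which were also the deepest class, with a median of 8301.5 UMIs per nucleus. The 215 vascular nuclei held few of its UMIs, but their pooled level of 628 CPM was near the 722 CPM of neurons. Their share with an Arhgap6 UMI was 60.5%, against 58.2% in neurons. In the uninjured control the level was 653 CPM in neurons and 635 CPM in vascular nuclei. It was 84.4 CPM in microglia, 77.1 CPM in oligodendrocyte precursors, 57.3 CPM in astrocytes and 43.7 CPM in oligodendrocytes. Oligodendrocytes served as the background class, since free RNA gives UMIs in nuclei that do not express a gene. Their share with an Arhgap6 UMI was 14.03% in the control (median depth 3346.5 UMIs) and 1.51% in untraced replicate 1 (median depth 3205 UMIs). The share in this class was thus not the same in all libraries. Since the control's neurons and other nuclei may be separate preparations, its oligodendrocytes may not give the background of its neurons. Shares of neurons with a UMI were 62.2% in the control (median depth 8907 UMIs) and 63.6% in untraced replicate 1 (median depth 8522 UMIs). Both were above the oligodendrocyte share of the same library.

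Within neurons the levels spanned a wide range, and dorsal excitatory subtypes stood at the top. The names of the subtypes are the authors'. DE was read as dorsal excitatory and DI as dorsal inhibitory. Slc17a6, the vesicular glutamate transporter of excitatory neurons, lay between 169 and 302 CPM in the DE subtypes and between 8.93 and 11.02 CPM in the DI subtypes. Gad1, an enzyme of GABA synthesis, lay between 4.10 and 12.3 CPM in the DE subtypes and between 54.3 and 197 CPM in the DI subtypes.

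The highest level was that of DE_Reln_Nmur2, a subtype named for reelin and a neuromedin U receptor. It had 3129 and 3106 CPM in the hemisection libraries, 3246 and 3385 CPM in the untraced libraries and 3144 CPM in the uninjured control, a mean of 3202 ± 116 CPM (SD, n = 5 libraries with at least 10 such nuclei). These 5 values lay within a narrow band and above every value of the next subtype. DE_Sox5_Qrfpr averaged 2482 ± 233 CPM (SD, n = 6) and ranged between 2122 CPM in the regenerating library and 2761 CPM in untraced replicate 1. Its range overlapped that of DE_Reln_Trhr, which averaged 2418 ± 541 CPM (SD, n = 2).

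DE_Tac2_Nmu followed with 1965 ± 243 CPM (SD, n = 4), DE_Nts with 1487 ± 296 CPM (SD, n = 3) and DE_Rreb1_Zim1 with 1403 ± 127 CPM (SD, n = 2). DE_Tac2_Nmu did not overlap with DE_Nts, while DE_Nts and DE_Rreb1_Zim1 could not be ordered by their ranges. These 6 subtypes were the ones above 1000 CPM. In the uninjured control they made up 29.7% of neurons and held 80.8% of the Arhgap6 UMIs of neurons.

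Other dorsal excitatory subtypes were far lower, so the level did not follow the DE class as a whole. DE_Cck_Cpne4 averaged 509 ± 191 CPM (SD, n = 2), and DE_Maf_Cpne4 averaged 297 ± 131 CPM (SD, n = 6). DE_Tac1 had 291 CPM in the control, its only library with at least 10 nuclei. DE_Rora averaged 67.0 ± 16.8 CPM (SD, n = 2), among the lowest of all subtypes.

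MIL_Arhgap6, which carries the gene in its name, ranked seventh among the subtypes, below 6 DE subtypes. Its 7 nuclei of hemisection replicate 1 had 777 CPM, its 4 nuclei of untraced replicate 1 had 1224 CPM and its 12 control nuclei had 918 CPM. Gad1 in this subtype was at 83.3 CPM and Slc17a6 at 9.25 CPM, so it is inhibitory by these markers. It is rare, at 0.559% of control neurons, and held 0.738% of their Arhgap6 UMIs.

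Dorsal inhibitory neurons lay in the middle of the order. DI_Npy averaged 705 ± 286 CPM (SD, n = 3), with 955 CPM in hemisection replicate 1, 766 CPM in untraced replicate 1 and 394 CPM in the control. DI_Rorb averaged 277 ± 201 CPM (SD, n = 3), DI_Pdyn_Gal 266 ± 88.6 CPM (SD, n = 5) and DI_Nxph1_Npy 227 ± 109 CPM (SD, n = 4). The ranges of these 4 subtypes overlapped with their neighbours in the order.

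Ventral neurons and motor neurons were low. In the uninjured control the VEP, VIP and VIL families had 73.7, 53.4 and 43.1 CPM, and motor neurons had 88.9 CPM. Oligodendrocytes of that library, the background class, had 43.7 CPM (40.0 to 47.7). The intervals of VEP (64.8 to 83.4) and motor neurons (63.5 to 121) lay above theirs, while those of VIP and VIL overlapped it. Microglia, the highest glial class there, had 84.4 CPM (67.5 to 104), which overlapped VEP and motor neurons. Expression in these neurons could thus not be set apart from all glial classes. The VEP family had 129 CPM in untraced replicate 1 (26 nuclei), where oligodendrocytes had 4.04 CPM.

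**Figure D1:**
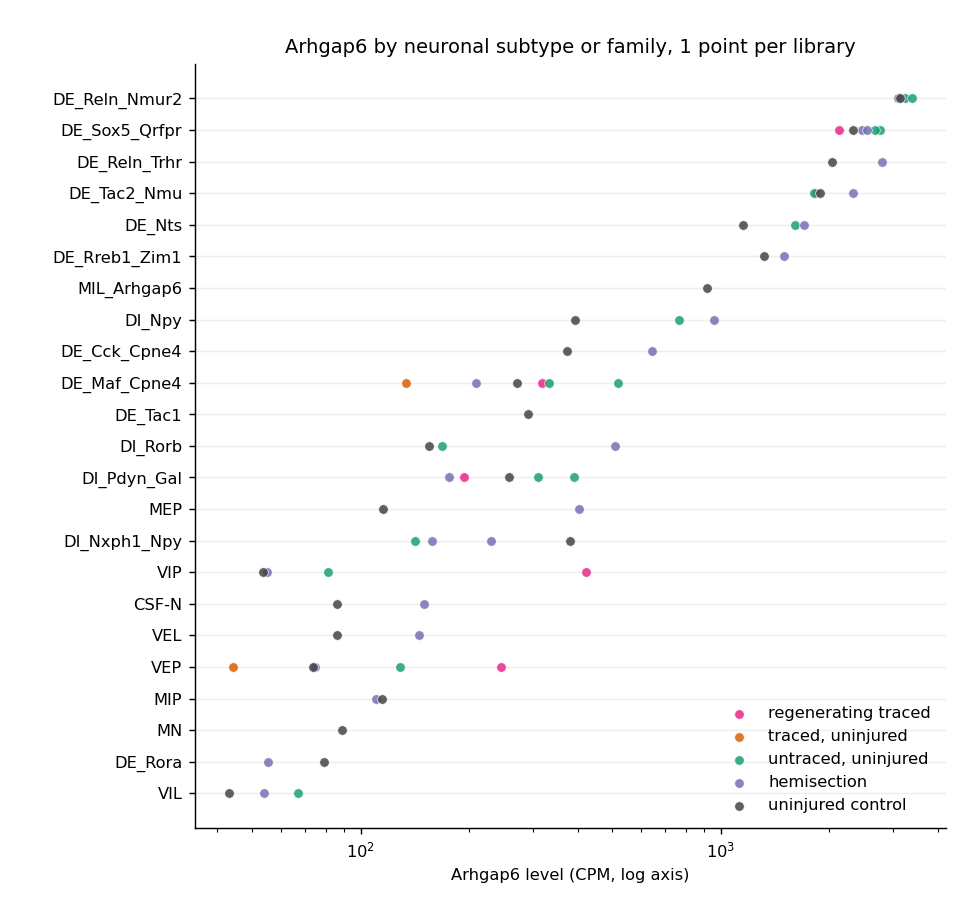
Arhgap6 level (CPM, log axis) for each DE and DI subtype, for MIL_Arhgap6 and for each other neuronal family with at least 10 nuclei in a library, 1 point per library, coloured by group. DE_Reln_Nmur2 is at the top with a mean of 3202 CPM, and DE_Rora, with a mean of 67.0 CPM, lies near the ventral families at the bottom.

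In the top subtypes most nuclei of the deeper libraries held the transcript. In the shallow regenerating library 52.9% of 17 DE_Sox5_Qrfpr nuclei and 32.0% of 25 DE_Tac2_Nmu nuclei had an Arhgap6 UMI. In hemisection replicate 1, 85.9% of 85 DE_Sox5_Qrfpr nuclei had an Arhgap6 UMI, with a median of 14 UMIs and quartiles of 3 and 29. In hemisection replicate 2 all 10 such nuclei had one, with quartiles of 11.25 and 24.25. In the control 192 of 192 had one, with a median of 18 UMIs and quartiles of 12 and 24. Of these 3 libraries the quartiles were farthest apart in hemisection replicate 1, while its level of 2458 CPM stood near the 2330 CPM of the control. Of DE_Reln_Nmur2 nuclei, 92.2% had a UMI in hemisection replicate 1 and 99.0% in the control. Median depths of the DE_Sox5_Qrfpr nuclei were 6994 UMIs in hemisection replicate 1 and 8032 UMIs in the control, and the part of depth in these shares was not tested.

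Over all neurons, traced libraries stood apart from every other. Regenerating traced neurons had 837 CPM, with a 95% Poisson interval of 690 to 1006 CPM from 113 UMIs in 238 neurons. Traced replicates 1 and 2 had 241 CPM (216 to 268) and 282 CPM (228 to 345), from 350 and 94 UMIs in 80 and 25 neurons. Untraced replicates 1 and 2 had 905 CPM (873 to 937) and 942 CPM (879 to 1008). Both traced libraries lay below all 6 others, with no overlap of the intervals. In the hemisection libraries the level was 862 CPM (842 to 882) and 990 CPM (931 to 1052), and in the uninjured control it was 653 CPM (643 to 665). The intervals cover counting error only.

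Shares of neurons with a UMI depend on depth, and traced nuclei were the deepest. As sequenced, the share was 50.0% and 40.0% in the traced libraries and 63.6% and 65.9% in the untraced libraries. With each nucleus thinned to 400 UMIs it was 10.0% and 8.0% in the traced libraries and 27.97% and 30.1% in the untraced libraries. At that depth the regenerating library had 19.2% of 156 neurons, with 82 shallower ones left out. The hemisection libraries had 21.9% and 29.6%, and the control had 20.3%. As with the levels, both traced shares lay below both untraced shares. Oligodendrocytes had 0.159% and 0.769% in the untraced libraries.

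**Figure D2:**
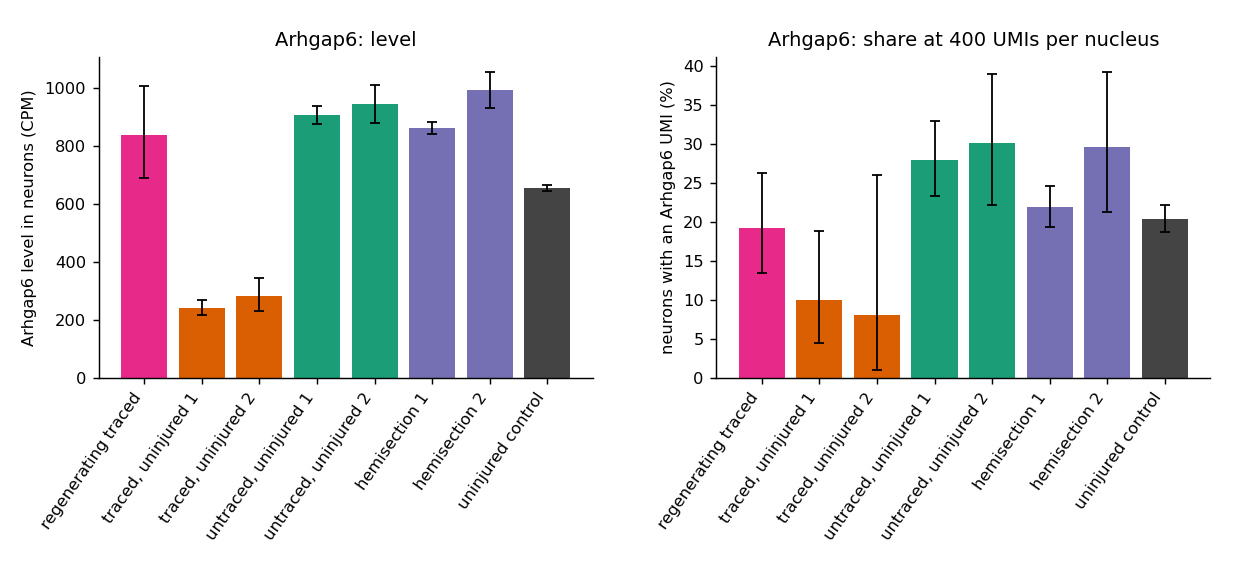
Arhgap6 in the neurons of each library, as level in CPM (left) and as percent of neurons with a UMI after thinning to 400 UMIs per nucleus (right). Bars are single libraries and error bars are 95% exact Poisson (left) or exact binomial (right) intervals. The 2 traced, uninjured libraries are lowest in both panels, at 241 and 282 CPM.

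The first comparison asks how neurons that project to the lumbar cord differ from their neighbours. Traced neurons averaged 261 ± 28.9 CPM, against 923 ± 26.4 CPM in untraced neurons (SD, n = 2 each), a log2 ratio of -1.82. Within animal 1 the log2 ratio was -1.91 and within animal 2 it was -1.74. The contrast chose the gene, so no test is given. For reference, 0.362% of the 11601 genes tested passed an adjusted p of 0.05 in this contrast. Traced replicate 2 rests on few nuclei: a single DE_Reln_Nmur2 nucleus gave 48 of its 94 Arhgap6 UMIs.

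The traced and untraced neurons were different mixtures of subtypes. DE neurons were 37.5% and 36.0% of the traced neurons and 54.5% and 57.7% of the untraced neurons. The 6 subtypes above 1000 CPM were 15% and 24.0% of traced neurons and 38.7% and 39.0% of untraced neurons. The VEP family, which is low in Arhgap6, was 38.8% and 24.0% of traced neurons and 7.34% and 4.88% of untraced neurons. Makeup therefore moved with the level in the same direction.

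Within families the direction was not the same throughout. DE neurons had 564 and 997 CPM in the traced libraries, against 1852 and 1643 CPM in the untraced libraries. The 2 traced values lay below both untraced values. VEP neurons had 44.3 and 16.8 CPM in the traced libraries, against 129 and 37.7 CPM in the untraced libraries. Here the ranges overlapped, and the second value of each pair rests on 2 UMIs in 6 nuclei. VIP neurons had 96.1 and 43.2 CPM in the traced libraries, against 81.1 and 33.9 CPM in the untraced libraries, and so were slightly higher in the traced fraction of both animals, with overlapping counting intervals. VEL neurons had 173 CPM in 5 traced nuclei of animal 1, against 8.94 CPM in 8 untraced nuclei. DI neurons, only 4 of them traced, had 96.2 and 409 CPM in the traced libraries, against 311 and 386 CPM in the untraced libraries. With the shares of 4 families held fixed (DE, VEL, VEP and VIP), the traced level was 475 CPM and the untraced level 1340 CPM, a log2 ratio of -1.50.

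Between subtypes of the same name the difference was smaller. DE_Maf_Cpne4, the most numerous traced DE subtype, had 135 CPM in 13 traced nuclei and 468 CPM in 62 untraced nuclei. DE_Tac2_Nmu had 687 CPM in 4 traced nuclei and 1962 CPM in 28 untraced nuclei. DE_Reln_Nmur2 had 1993 CPM in 4 traced nuclei and 3287 CPM in 62 untraced nuclei. These values pool both animals. DE_Maf_Cpne4 and DE_Tac2_Nmu were lower in traced neurons of each animal. In animal 2 these traced values rest on 2 UMIs in 2 nuclei of DE_Maf_Cpne4 and 5 UMIs in 2 nuclei of DE_Tac2_Nmu. The traced DE_Maf_Cpne4 interval there (18.0 to 537 CPM) overlapped that of untraced neurons (244 to 444 CPM). DE_Reln_Nmur2 was not lower in both animals. In animal 1 it had 1337 CPM in 3 traced nuclei and 3246 CPM in untraced nuclei. In animal 2 it had 3691 CPM in 1 traced nucleus and 3385 CPM in untraced nuclei. DE_Rreb1_Zim1 had 1003 CPM in 6 traced nuclei and 1481 CPM in 8 untraced nuclei, with intervals that nearly met (805 to 1234 and 1240 to 1753 CPM).

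Of the 10 subtypes with at least 3 nuclei in both fractions, 8 had the lower level in traced neurons and 2 the higher. DE_Tac1 was one of the exceptions, with 31 UMIs in 4 traced nuclei (549 CPM) and 1 UMI in 4 untraced nuclei (41.8 CPM). The other was the VEL family's subtype, with 14 UMIs in 5 traced nuclei and 1 UMI in 9 untraced nuclei. Both rest on a single untraced UMI, and they were picked out after their values were seen. Among the 8, MIP_Tfap2b had 0 UMIs in 3 traced nuclei and 1 UMI in 9 untraced nuclei, which gives no direction.

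If each traced neuron had held Arhgap6 at the untraced level of its own subtype, 697 UMIs would have been counted in 102 of the 105 traced neurons whose subtype was present. The observed number was 425, a ratio of 0.610 (95% interval 0.554 to 0.671) or a log2 ratio of -0.71. The ratio was 0.601 in traced replicate 1 and 0.643 in traced replicate 2. Against the subtype levels of the uninjured control, traced neurons were at 0.700 and 0.683 of the expected UMIs and untraced neurons at 1.14 and 1.13. The difference was thus smaller at matched subtype than over all neurons, in both animals. Traced neurons were also sequenced deeper, with median depths of 16489.5 and 12138 UMIs, against 8522 and 5767 UMIs in untraced neurons, and the part of depth was not tested.

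**Figure D3:**
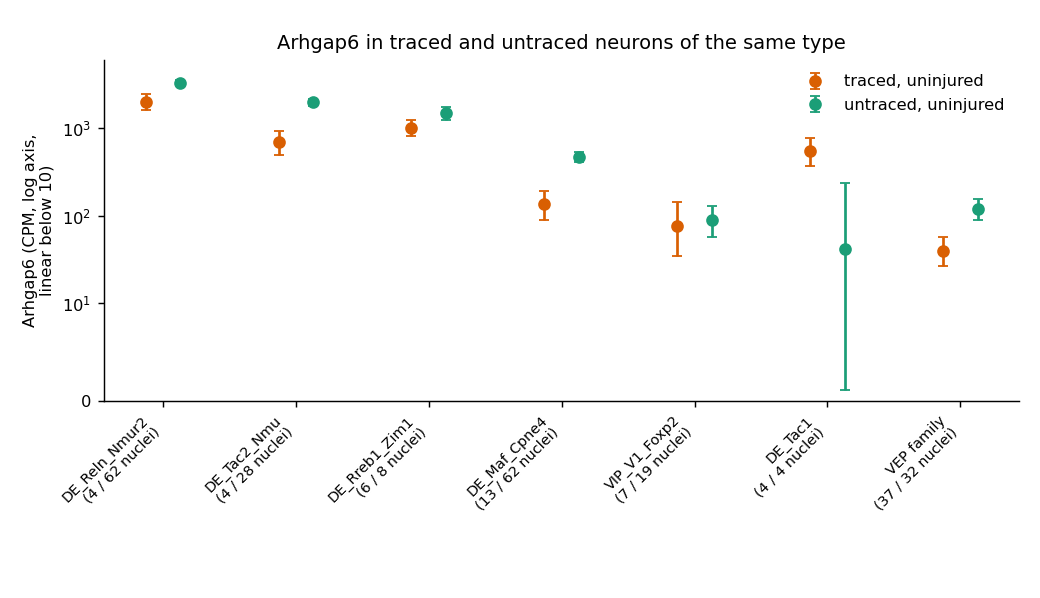
Arhgap6 level (CPM, log axis, linear below 10) in traced (orange) and untraced (green) neurons of the same subtype or family, with the number of nuclei under each name. Error bars are 95% Poisson intervals of the summed counts. DE_Maf_Cpne4 is lower in traced neurons (135 CPM) than in untraced neurons (468 CPM), and DE_Tac1 is the exception, with 549 CPM in the traced fraction and 41.8 CPM in the untraced fraction.

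The hemisection experiment asks what changes in the neurons of mice that repaired an injury on their own. The contrast that chose the gene was that of traced and untraced neurons, although earlier results of the hemisection libraries were known as well. Neurons had 862 and 990 CPM in the hemisection libraries and 653 CPM in the uninjured control. Both hemisection values lay above the control. In edgeR's quasi-likelihood test over 11601 genes the log2 fold change was 0.62 (SE 0.23), with an unadjusted p of 0.0162 and an adjusted p of 0.142, so Arhgap6 was not called. Of the genes tested, 5.56% were called and 0.948% were called higher. With the libraries of experiment 2 alone, where 1 residual degree of freedom remains, the log2 fold change was 0.61 and the adjusted edgeR p was 0.0236. In that fit 16.6% of all genes were called. Among the other fits on neurons with both hemisection libraries, the adjusted p lay between 0.0841 (edgeR with the replicate block) and 0.444 (DESeq2). Summed over all nuclei, which mixes neurons with the other classes, the adjusted edgeR p was 0.999 and 0 genes were called.

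The makeup of the neurons moved with this difference too. DE neurons were 53.3% and 58.3% of neurons after hemisection and 42.4% in the control. The 6 subtypes above 1000 CPM were 34.2% and 43.5% of neurons after hemisection and 29.7% in the control. With the shares of DE and DI neurons held fixed and both hemisection libraries pooled, the log2 ratio was 0.01. Replicate 1 holds most of these nuclei. At the control's family levels, hemisection replicates 1 and 2 had 0.995 (0.971 to 1.02) and 1.17 (1.10 to 1.25) times the expected UMIs. At the control's subtype levels the hemisection neurons had 1.10 times the expected UMIs in both libraries (intervals 1.08 to 1.13 and 1.04 to 1.17). The subtype ratios come to a log2 ratio of 0.14, smaller than the value over all neurons. The uninjured untraced neurons had 1.14 and 1.13 times the UMIs expected at the same subtype levels.

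Among DE neurons alone the level was 1613 and 2005 CPM in the hemisection libraries and 1629 CPM in the control. The control fell between the hemisection values. The log2 fold change was 0.17 (SE 0.25) with an adjusted edgeR p of 0.885, where 2.73% of the genes tested were called. It was 0.37 without hemisection replicate 1 and -0.02 without hemisection replicate 2, so its sign rests on 1 library.

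Of 23 subtypes with at least 10 nuclei in both libraries, 15 were above the control in hemisection replicate 1 and 8 below. Of the 6 subtypes above 1000 CPM, 5 were above it. DE_Tac2_Nmu had 2326 and 2861 CPM after hemisection, the second in 6 nuclei, and 1887 CPM in the control. DE_Nts had 1704 and 1731 CPM after hemisection, the second in 6 nuclei, and 1150 CPM in the control. Their counting intervals did not overlap with the control's, nor did that of DE_Reln_Trhr in hemisection replicate 1, at 2801 CPM beside 2036 CPM in the control. The untraced libraries, also uninjured, had 1608 and 1120 CPM in DE_Nts and 1814 and 2768 CPM in DE_Tac2_Nmu. The intervals of DE_Nts in untraced replicate 1 and of DE_Tac2_Nmu in untraced replicate 2 lay above the control's too. DE_Sox5_Qrfpr had 2458 and 2542 CPM after hemisection and 2330 CPM in the control. DE_Reln_Nmur2 had 3129 and 3106 CPM after hemisection and 3144 CPM in the control. In DE_Sox5_Qrfpr and DE_Reln_Nmur2 the counting intervals of the 3 libraries overlapped. Dorsal inhibitory subtypes went both ways. DI_Nxph1_Npy had 157 and 230 CPM after hemisection and 381 CPM in the control, but untraced replicate 1, also uninjured, had 141 CPM. DI_Pdyn_Gal had 176 and 111 CPM after hemisection, the second in 9 nuclei, and 258 CPM in the control. DI_Rorb had 509 and 445 CPM, the second in 2 nuclei, and 154 CPM in the control. DI_Npy had 955 and 1435 CPM, the second in 1 nucleus, and 394 CPM in the control. Untraced replicate 1 had 392 CPM in DI_Pdyn_Gal, 168 CPM in DI_Rorb and 766 CPM in DI_Npy. The summed oligodendrocyte markers in neurons were 92.98 and 163 CPM after hemisection and 695 CPM in the control, with all 6 markers above 0 in each. Their part in these differences was not tested.

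**Figure D4:**
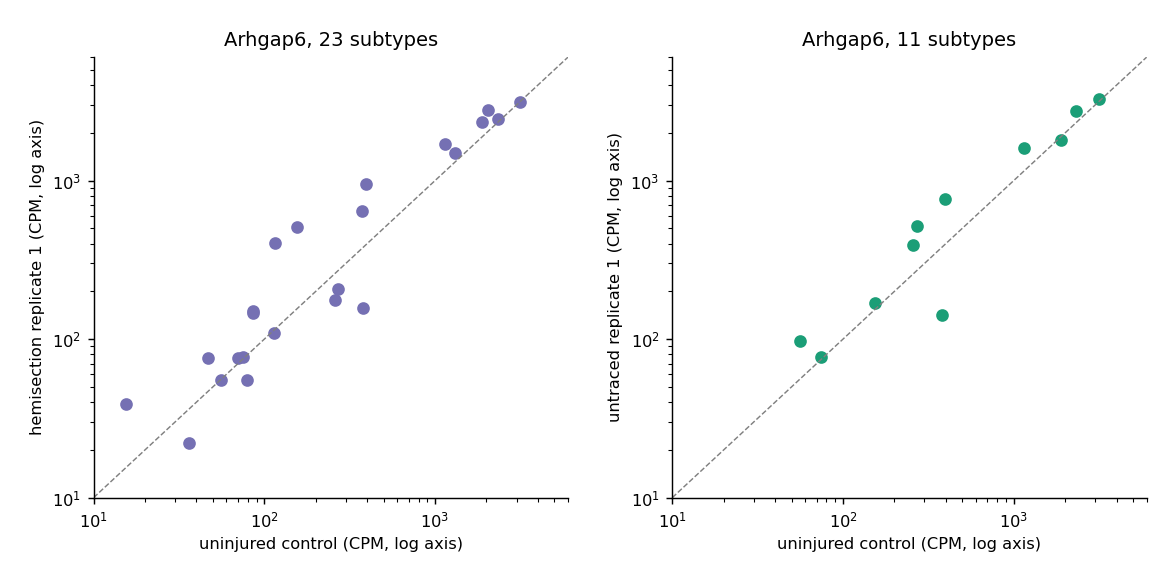
Arhgap6 level (CPM, log axes) per neuronal subtype with at least 10 nuclei, for hemisection replicate 1 (left, 23 subtypes) and untraced replicate 1 (right, 11 subtypes) on the vertical axis and the uninjured control on the horizontal axis. The dashed line marks equal levels; 15 of 23 and 9 of 11 points lie above it.

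Outside neurons only microglia and oligodendrocytes had 20 or more nuclei in each library of experiment 2. Microglia had 181 and 67.2 CPM after hemisection and 84.4 CPM in the control, so the groups overlapped. The log2 fold change was 0.16 (SE 0.47), and the adjusted p of edgeR was 0.876, with 20.4% of genes called. It was -0.21 without hemisection replicate 1, which held 32 microglia, and 1.02 without hemisection replicate 2, which held 593.

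Oligodendrocytes had 36.1 and 7.45 CPM after hemisection and 43.7 CPM in the control. Both hemisection values were below the control, with a log2 fold change of -1.75 (SE 0.72) and an adjusted edgeR p of 0.159, where 7.61% of genes were called. Without hemisection replicate 2 it was -0.25, so the size rests on that library. Oligodendrocytes of the untraced libraries, which are uninjured, had 4.04 and 14.7 CPM, so both hemisection values lay within the range of the uninjured libraries.

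Regenerating traced neurons are set against the uninjured traced neurons without a test, since there is 1 regenerating library and its depth is far lower. Their level of 837 CPM stood against 241 and 282 CPM in traced neurons, a log2 ratio of 1.68. DE neurons had 1662 CPM in the regenerating library (92 UMIs in 112 nuclei) and 564 and 997 CPM in the traced libraries. VEP neurons had 246 CPM in the regenerating library, from 10 UMIs, and 44.3 and 16.8 CPM in the traced libraries. VIP neurons had 423 CPM in the regenerating library, from 5 UMIs, and 96.1 and 43.2 CPM in the traced libraries. DI neurons had 312 CPM in the regenerating library, from 6 UMIs, between the 96.2 and 409 CPM of the traced libraries. The regenerating value was thus the higher in DE, VEP and VIP neurons but not in DI neurons. No other family had an Arhgap6 UMI in that library. The regenerating library holds no other class of nuclei that could give its background.

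DE neurons were 47.1% of the regenerating neurons and 37.5% and 36.0% of the traced neurons, and the 6 subtypes above 1000 CPM were 31.1% of the regenerating neurons and 15% and 24.0% of the traced neurons. Against the subtype levels of the uninjured control, the regenerating neurons had 1.31 times the expected UMIs (1.08 to 1.57), against 0.700 and 0.683 times in the traced neurons. DE_Reln_Nmur2 reached 9513 CPM in the regenerating library, but from 26 UMIs in 8 nuclei, 12 of them in 1 nucleus. These 26 are part of the 113 UMIs behind the ratio of 1.31, where 86.4 were expected. Other subtypes went both ways. DE_Tac2_Nmu had 1834 CPM in regenerating and 687 CPM in traced neurons, DE_Sox5_Qrfpr 2122 and 2082 CPM, and DE_Rreb1_Zim1 702 and 1003 CPM, all from few nuclei. The median regenerating nucleus held 488 UMIs, and injury, depth and library cannot be told apart here.

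The genes whose levels across subtypes were most like those of Arhgap6 were ranked by Pearson's correlation of log2(CPM + 10) over 24 subtypes with at least 20 nuclei in the control, among 7293 genes. The correlation is across subtypes of 1 library, which share depth and ambient RNA, and it is given as a description. It was repeated in hemisection replicate 1 over the 15 subtypes with at least 20 nuclei in both libraries. Ripor2, which encodes a regulator of cell polarization, came first, with 0.85 in hemisection replicate 1 and 0.88 in the control. F2rl2, a protease-activated receptor, had 0.83 in hemisection replicate 1 and 0.87 in the control, and Dclk3, a doublecortin-like kinase, had 0.77 and 0.87. Hccs had 0.70 in hemisection replicate 1 and 0.86 in the control, and Camk2d, a calcium/calmodulin-dependent kinase, had 0.72 and 0.86. The control values chose these 5 genes, and all 5 were also positive in hemisection replicate 1. Their ranks there were 3 (Ripor2), 5 (F2rl2), 42 (Dclk3), 125 (Hccs) and 95 (Camk2d).

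Ripor2 had 333 CPM in DE_Reln_Nmur2, 323 CPM in DE_Sox5_Qrfpr and 515 CPM in DE_Nts of the control, against 46.9 CPM in VIP_V1_Foxp2. Hccs had 88.7 CPM in DE_Reln_Nmur2 and 10.1 CPM in VIP_V1_Foxp2. Its locus holds 13 Arhgap6 exons, and the part of shared reads in its likeness was not tested.

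At the other end of the ranking, picked out after its values were seen, Elavl2 had a correlation of -0.96 in hemisection replicate 1 and -0.92 in the control. Elavl2 encodes a neuronal RNA-binding protein. It had 22.5 CPM in DE_Sox5_Qrfpr and 23.1 CPM in DE_Reln_Nmur2, where Arhgap6 was high. It had 522 CPM in motor neurons and 322 CPM in DE_Rora, where Arhgap6 was low. DE_Rora thus sided with the ventral neurons for both genes.

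**Figure D5:**
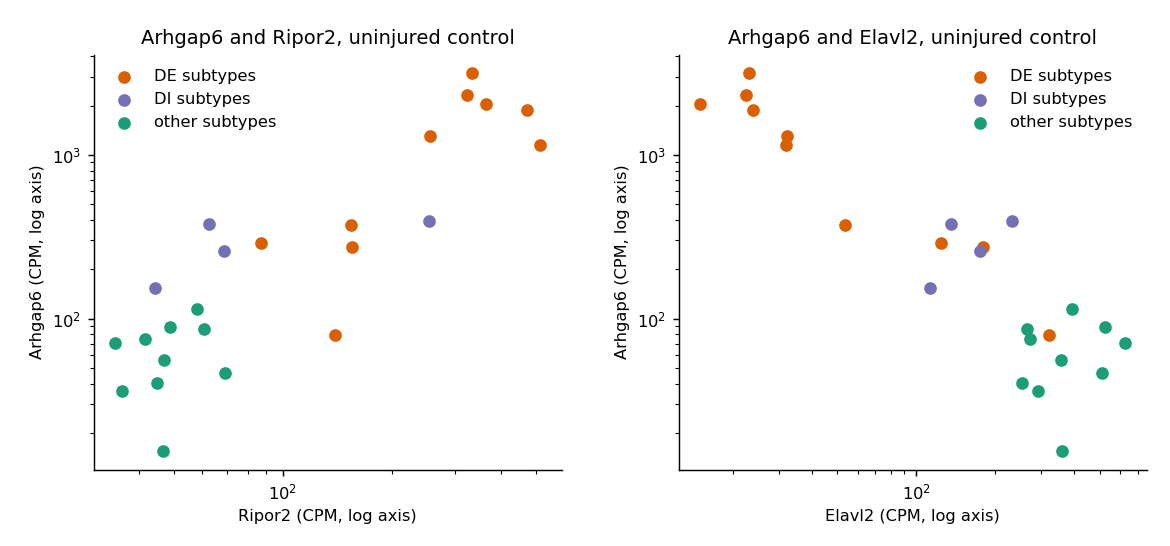
Arhgap6 level against Ripor2 (left) and Elavl2 (right) over 24 neuronal subtypes of the uninjured control, in CPM on log axes, 1 point per subtype, coloured by DE, DI and other subtypes. Arhgap6 goes up with Ripor2 (correlation 0.88) and down with Elavl2 (correlation -0.92).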

How the data were processed

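The authors deposited UMI counts of 19787 genes in 12447 nuclei with an annotation of library, class and neuronal subtype. The submitters' processing notes name Cell Ranger 4.0.0, Seurat 3, mm10 and GRCm38. The sources used here give no filters, doublet removal or annotation method, and no filter or doublet caller was added. Arhgap6 and the comparisons were chosen with earlier results of these data known.

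Levels are CPM, the UMIs of a gene per 1000000 UMIs summed over the same nuclei of a library, with exact 95% Poisson intervals. Shares have exact binomial (Clopper-Pearson) intervals, and both cover counting error only. Sums over neurons of all 8 libraries were tested with edgeR 4.0.16 in R 4.3.3 (TMM, filterByExpr with a minimum count of 10, glmQLFit and glmQLFTest, 1 coefficient per group, 3 residual degrees of freedom). Genes were called below 0.05 after Benjamini-Hochberg adjustment over all genes tested. Groups of 1 library were assumed to vary like the others. DESeq2 1.42.0 was an alternative, and the edgeR code was tested on simulated data. Labels do not say that hemisection replicates are separate animals, so p-values may measure technical spread only.

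The traced and untraced fractions of experiment 1 carry the same animal number, in the titles and in the names of the nuclei, so these numbers pair the samples. Differences between animals correlated between the fractions at 0.21 over 7030 genes. Genes named are Arhgap6, the 5 genes most like it across subtypes and the genes that overlap it. Elavl2 and others named as such were added after their values were seen. Subtypes were ordered by their mean over libraries with at least 10 nuclei. Expected UMIs are the UMIs of each nucleus times the level of its subtype in the other group. Some genes and subtypes, and a set of gene lists, are not reported here.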

Additional observations from a re-analysis of the deposited data

Results flagged for a closer look

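In 3 subtypes with at least 10 nuclei in every library of experiment 2, both hemisection libraries lay on the same side of the control, and the sides differed between subtypes. DE_Sox5_Qrfpr was above the control in both, at a log2 ratio of 0.10. DE_Reln_Nmur2 was below it in both, at -0.012, and DI_Nxph1_Npy was below it in both, at -0.97. In DE_Sox5_Qrfpr and DE_Reln_Nmur2 the counting intervals of the 3 libraries overlapped, so counting error does not set their sides apart. The difference between subtypes was not tested. The first of these ratios stands beside 2458 and 2542 CPM after hemisection and 2330 CPM in the control, and the last beside 157 and 230 CPM after hemisection and 381 CPM in the control. The uninjured untraced replicate 1 had 141 CPM in DI_Nxph1_Npy, so the control library was the highest of the 4 with at least 10 such nuclei.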

How the results depend on the processing

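The hemisection log2 fold change of Arhgap6 in neurons was positive under every alternative run. It was 0.61 and called with experiment 2 alone, 0.014 with family shares fixed and 0.14 at the subtype levels of the control, the last an alternative chosen after seeing the data. Leaving out 1 replicate gave 0.49 to 0.75 in neurons, -0.024 to 0.37 in DE neurons, -0.21 to 1.02 in microglia and -2.38 to -0.25 in oligodendrocytes. The replicate block gave 0.62 (edgeR adjusted p = 0.0841) and, besides the counts given here, changed no call. The 645 genes called became 136 with DESeq2, 1101 without a filter, 1344 with the block, 2413 with experiment 2 alone and 171 to 1266 with 1 replicate left out. The 42 genes called between traced and untraced neurons became 234 without a filter, 141 with the block and 19 to 93 with 1 replicate left out.

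The traced over untraced log2 ratio was negative throughout. It was -1.90 with TMM scaling, -1.95 as a mean over nuclei, -2.28 without the nucleus richest in Arhgap6 of each library, -1.50 with family shares fixed, -0.71 at matched subtypes and -1.94 to -1.71 with 1 replicate left out. Over all nuclei it was -0.44, where the untraced libraries hold mostly non-neuronal nuclei. The regenerating over traced ratio lay between 1.57 and 1.80. Traced replicate 2 has 94 Arhgap6 UMIs and the regenerating library 113, which limits both.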

Other observations

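Vascular nuclei were the one non-neuronal class with Arhgap6 near the level of neurons in the control. The 188 vascular nuclei of the control were divided by their leading markers, with lists for mural cells and fibroblasts chosen after the data were seen. The 82 nuclei led by fibroblast markers (such as Dcn and Col1a1) had 948 CPM and 92.7% of them had an Arhgap6 UMI. The 27 led by mural markers (such as Pdgfrb and Rgs5) had 702 CPM and 66.7%, and the 79 led by endothelial markers (such as Cldn5 and Flt1) had 143 CPM and 27.8%. Other libraries held at most 12 vascular nuclei, with 346 CPM in the 12 of hemisection replicate 2 and 1148 CPM in the 8 of untraced replicate 1.

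Arhgap6 is X-linked, and the matrix holds no row for Xist, so Xist could not be analysed. The 4 Y-linked genes of the matrix summed to between 0.956 and 4.82 CPM in the neurons of 6 libraries and to 0 UMIs in those of traced replicate 2 and the regenerating library, where 333459 and 135012 UMIs were counted.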
